A study of Mus musculus with 12 samples.

Results

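The p53 family (Trp53, Trp63 and Trp73), the p53 ubiquitin ligase gene Mdm2 and 6 cyclin-dependent kinase (CDK) inhibitor genes (Cdkn1a, Cdkn1b, Cdkn1c, Cdkn2a, Cdkn2b and Cdkn2c) were followed across 12 RNA-seq libraries of a mouse breast tumour line. The 10 genes were taken by symbol from a table of 55492 features, and 8 of them were among the 15052 genes with enough counts to be tested. Trp53 and Trp73 had too few counts for a test. The line, CCN6KOT, came from a spindle metaplastic breast tumour, and the sources used here give no genotype beyond that name. All libraries came from cells that were infected with a lentivirus and selected with puromycin, 3 in each group. DNTCF4-EZH2 cells carried a dominant negative TCF4 construct (DNTCF4) and EZH2, the methyltransferase of the Polycomb complex PRC2. DNTCF4-SET cells carried DNTCF4 and a construct called SET, which the labels do not expand. DNTCF4 cells (labelled DNTCF4-Vector) carried the dominant negative construct without EZH2 or SET, and Vector cells (labelled PPGS-Vector) carried a control lentivirus. The series' design text describes the added proteins as a rescue. Ezh2 counts were 8.34-fold higher in DNTCF4-SET than in DNTCF4, and 6.88-fold higher in DNTCF4-EZH2. Whether the SET and EZH2 constructs share sequence was not tested. The sources used here do not state which promoters drove the constructs or how many clones stood behind a group.

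Proteins of the p53 family are transcription factors that share a DNA motif. p53 halts or kills stressed cells and is held low by MDM2, whereas p63 maintains basal epithelium, including the basal layer of the mammary gland. CDK inhibitors hold the cell cycle before S phase. INK4 proteins bind CDK4 and CDK6, and CIP/KIP proteins, of which p21 (Cdkn1a) is the best known p53 target, bind cyclin and CDK complexes. Cdkn2a also encodes ARF, which blocks MDM2, and the Ink4a-Arf locus is a known target of Polycomb repression.

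Library totals ran from 23597545 to 33999982 counts. Levels are in CPM, counts scaled to library size with TMM factors, and are given as mean ± SD with n = 3, and levels of different genes are compared only per kilobase of merged exon. Each change is on the log2 scale, beside its standard error (SE). The 95% intervals of log2 changes use a normal multiple of the SE, so they are somewhat narrower than the tests imply. Two-sided quasi-likelihood tests in edgeR gave the p-values, adjusted by Benjamini and Hochberg's method over the 15052 genes, and a gene was called at an adjusted p under 0.05. Nothing in the labels says whether replicate libraries are separate cultures, so p-values cover the spread among these libraries, which may be technical. DNTCF4 replicate 1 differed from the other DNTCF4 libraries by 19 and 12.2 chi-square units per degree of freedom over genes, and those differed from each other by 3.17. DNTCF4-EZH2 replicates 1 and 2 also differed by 14.9, beside 5.88 and 5.66 for the other pairs of that group. The mesenchymal marker vimentin (Vim) lay at 645 ± 29.9 CPM in DNTCF4 and 1025 ± 36 CPM in Vector, the mesenchymal marker Prrx1 at 87.4 ± 5.73 CPM in DNTCF4 and 19.8 ± 0.622 CPM in Vector, and the epithelial cadherin gene Cdh1 did not exceed a mean of 1.01 CPM in any group. The basal keratin gene Krt5 had 2 counts in DNTCF4-EZH2 and 0 in the other groups. Not all epithelial markers were low. The luminal keratin genes Krt8 and Krt18 lay at 83 ± 4.08 and 247 ± 13.7 CPM in DNTCF4. In Vector they lay at 87.8 ± 1.79 and 229 ± 2.54 CPM. Epcam, like Cdh1, was low, at 0.223 CPM in DNTCF4 and 0.215 CPM in Vector.

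Trp53 was almost silent in this line. It is annotated as a protein-coding gene on chromosome 11, 69580359 to 69591873 (GRCm38, plus strand). Its counts were 0, 2 and 2 in DNTCF4-EZH2 replicates 1, 2 and 3, 0 in each DNTCF4-SET library, 0, 1 and 1 in DNTCF4, and 2, 0 and 0 in Vector. No library had more than 2 counts, and no group stood out. The 8 counts in 344523358 make 0.0232 CPM, with a 95% exact Poisson interval of 0.01 to 0.0458 CPM that covers counting error only. The 0 counts of DNTCF4-SET allow up to 0.042 CPM by the same interval. A processed copy, Trp53-ps, had 4 counts in the 12 libraries.

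Genes near Trp53 ranged from well counted to almost silent. Wrap53, which encodes a telomerase and Cajal body protein and starts on the other strand 104 bases from Trp53, lay at 7.77, 7.04, 6.83 and 6.8 CPM in DNTCF4-EZH2, DNTCF4-SET, DNTCF4 and Vector. Its change in DNTCF4 against Vector was 0.01 (adjusted p = 0.946). Of the 20 nearest protein-coding neighbours, 10 on each side, 17 had enough counts to be tested. Among them were Kdm6b, an H3K27 demethylase gene, at 154 CPM in DNTCF4 and 126 CPM in Vector, and Eif4a1, a translation initiation helicase gene, at 541 and 521 CPM in those groups. The neighbours with too few counts for a test were Sox15, with 4 counts in all, Shbg with 11 and Dnah2 with 55. Atp1b2, the nearest neighbour at higher coordinates, and Sat2 were tested but low, with 87 and 190 counts in all. Trp53 thus stood among both well counted and low genes, and a cause of its low count was not tested.

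**Figure D1:**
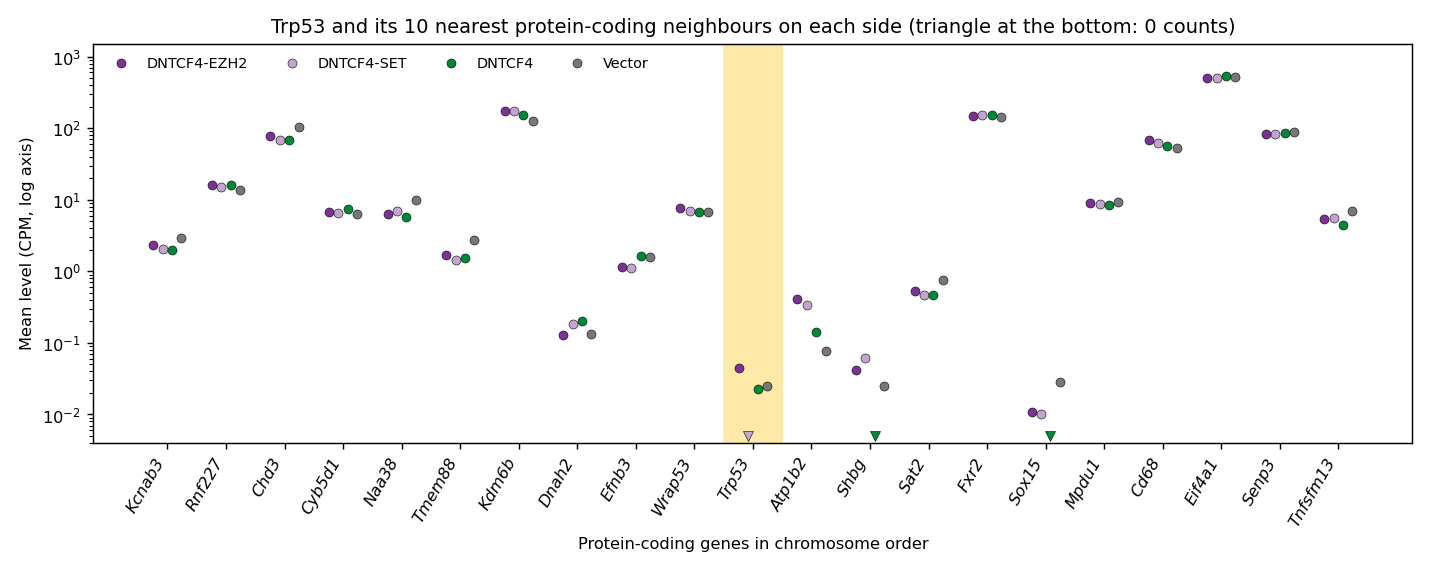
Mean CPM (log axis) of Trp53, in the shaded column, and of its 10 nearest protein-coding neighbours on each side in chromosome order, by group; triangles mark 0 counts. Trp53 lies at or under 0.0442 CPM in each group, while its neighbour Wrap53 lies between 6.8 and 7.77 CPM.

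The RefSeq start of Trp53 is shown because it belongs to a gene with almost no reads and yet holds a match to the p53 half-site pattern, in capitals, that begins 75 bases before the RefSeq start (chr11:69580109-69580408, plus strand, GRCm38.p6, RefSeq). The pattern is its own reverse complement, so a match on one strand is a match on both.

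Trp53: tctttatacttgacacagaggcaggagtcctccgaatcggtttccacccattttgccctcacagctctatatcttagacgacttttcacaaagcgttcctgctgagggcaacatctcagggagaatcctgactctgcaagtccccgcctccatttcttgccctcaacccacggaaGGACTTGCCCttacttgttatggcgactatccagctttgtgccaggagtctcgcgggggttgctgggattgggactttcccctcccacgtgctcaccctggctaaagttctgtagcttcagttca

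Trp73, on chromosome 4 (154056253 to 154140208, minus strand), was as rare. It had 2 counts in DNTCF4-SET replicate 2, 1 in DNTCF4 replicate 1 and none in the other 10 libraries, which makes 0.00871 CPM (95% exact Poisson interval 0.0018 to 0.0254). With Trp53 and Trp73 near 0, Trp63 was the p53 family gene with measurable transcript.

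Trp63 fell 9.4-fold in DNTCF4 against Vector, the largest change of the 8 tested genes. It lies on chromosome 16, 25683763 to 25892102 (plus strand). Its levels were 0.991, 0.924 and 0.733 CPM in the DNTCF4 libraries, against 7.95, 8.91 and 8.14 CPM in the Vector libraries. Every DNTCF4 library was far below every Vector library. The log2 change was -3.23 (SE 0.19, adjusted p = 1.02e-09), and 2.29% of the tested genes changed more. In these bulk libraries fewer cells that express Trp63 and less Trp63 RNA per cell cannot be told apart. The added constructs left Trp63 low. It stood at 1.11, 1.4 and 1.79 CPM in DNTCF4-EZH2, which is 5.84-fold below Vector (log2 -2.55, adjusted p = 5.25e-09), and at 0.68, 1.24 and 1.03 CPM in DNTCF4-SET, which is 8.44-fold below Vector (log2 -3.08, adjusted p = 1.23e-09). The DNTCF4-EZH2 libraries all lay above the DNTCF4 libraries, from 134 counts against 75 over the group, and the difference was called at log2 0.69 (SE 0.23, adjusted p = 0.0372). That call was lost in 7 of 18 alternative fits, among them those without DNTCF4-EZH2 replicate 3 (log2 0.50, adjusted p = 0.168), DNTCF4-EZH2 replicate 2 (0.70), DNTCF4 replicate 3 (0.58), DNTCF4 replicate 2 (0.73) or Vector replicate 3 (0.69). DNTCF4-SET and DNTCF4 overlapped (log2 0.15, adjusted p = 0.693). The TA and delta-N forms of p63 are merged in these counts.

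Other genes that mark basal epithelium or are known p63 targets did not share 1 direction. Of the 16 tested genes in a list of p63 and p73 partners and targets, 5 rose and 9 fell in DNTCF4 against Vector. Over all tested genes 29.5% were called higher and 28% lower. The median log2 change was -0.29 beside 0.01 over all tested genes. Perp, a desmosome gene and target of both p53 and p63, fell to 7.27 ± 0.517 CPM in DNTCF4, against 19.4 ± 1.33 in Vector (log2 -1.41, adjusted p = 7.62e-10). The integrin genes Itga3 (378 ± 20.1 in DNTCF4 and 642 ± 15.7 CPM in Vector) and Itga6 (130 ± 5.77 and 188 ± 5.04 CPM in the same groups) fell as well. Lamb3, a laminin 332 chain gene, rose to 95.2 ± 4.63 CPM in DNTCF4, against 41.5 ± 2.41 in Vector (log2 1.20, adjusted p = 3.6e-11). The summed level of 10 basal or squamous markers was 29.3 to 32 CPM in DNTCF4 libraries and 48.1 to 50.3 CPM in Vector libraries, with Krt5 and Krt6a at 0 counts in both groups. Most of that difference in the sum was Perp itself, with Jag2 at 18.4 CPM in DNTCF4 and 23.3 CPM in Vector, while the keratin gene Krt17 was at 2.37 CPM in DNTCF4 and 1.27 CPM in Vector. The summed level of 12 mesenchymal markers was 4841 to 5378 CPM in DNTCF4 and 10603 to 11519 CPM in Vector, with Twist1 at 0 in both. That sum is mostly Fn1, at 3861 CPM in DNTCF4 and 8722 CPM in Vector, and the list did not share 1 direction. Mean levels of Prrx1, Twist2 (2.7 CPM in DNTCF4 and 0.718 CPM in Vector), Zeb1 and Zeb2 were higher in DNTCF4. Those of Cdh2 (2.03 ± 0.433 and 1.67 ± 0.232 CPM) and Snai1 (49.5 ± 9.65 and 46.3 ± 3.1 CPM) differed little beside their SD. The part of these shifts in the change of Trp63 was not tested.

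All 8 tested genes were called in DNTCF4 against Vector, where 57.5% of all tested genes were, so that a call is the common outcome in this comparison. DNTCF4 was higher for 5 of the 8, where 29.5% of all genes were called higher, and lower for 3, where 28% were called lower. The median absolute log2 change was 0.64, beside 0.27 over all tested genes. The libraries of the 2 groups did not overlap for any of the 8, which held for 59.3% of all genes. All 8 calls and directions were kept in each of the 18 alternative fits, the one without DNTCF4 replicate 1 included. The sizes were smaller in limma on the deposited rlog values, which shrink differences, at -1.0 for Trp63, 0.70 for Cdkn1a, 0.37 for Cdkn1c, -0.30 for Cdkn2a, -0.44 for Cdkn2b, 0.39 for Cdkn2c, 0.19 for Mdm2 and 0.14 for Cdkn1b.

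**Figure D2:**
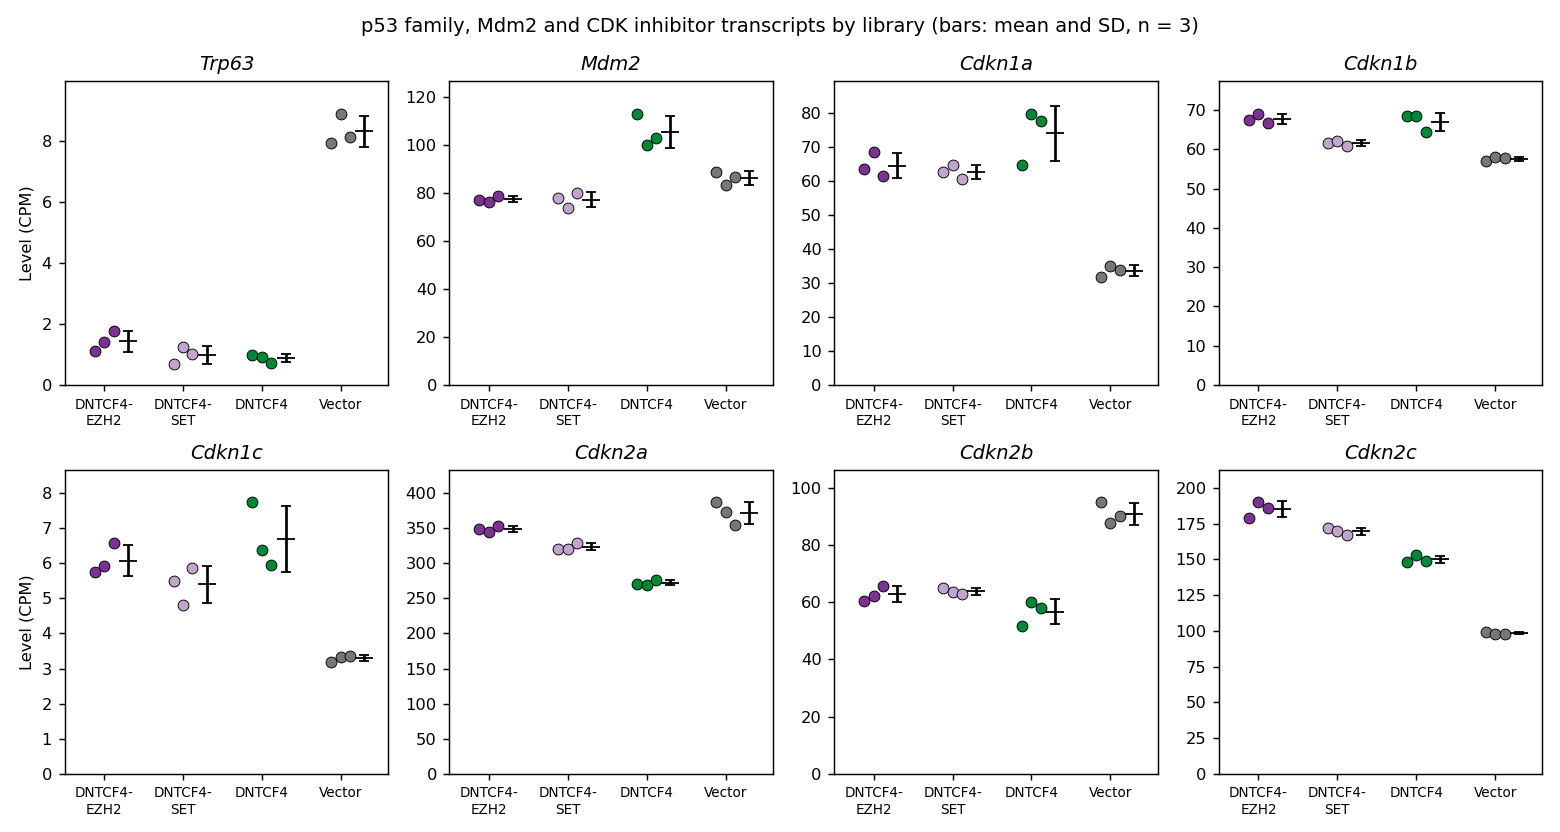
Level in CPM of the 8 tested genes in each library (points), with the mean and SD of each group beside them (n = 3). Trp63 and Cdkn2b are highest in Vector, Cdkn1a, Cdkn1c and Cdkn2c lowest there, and Mdm2 is highest in DNTCF4, at 105 CPM.

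Mdm2 was higher with DNTCF4 alone and lower once a second construct was present. Its product marks p53 for degradation, and its gene is also a p53 target. It lies on chromosome 10, 117688875 to 117710758 (minus strand). Mdm2 stood at 113, 100 and 103 CPM in DNTCF4 and at 88.7, 83.1 and 86.8 CPM in Vector, so that each DNTCF4 library exceeded each Vector library. The change was 0.29 (SE 0.048, adjusted p = 0.000115), and 0.23 without DNTCF4 replicate 1. With EZH2 added the levels were 77.2, 76.2 and 78.9 CPM, and with SET added 78, 73.6 and 79.8 CPM. Both groups were below all 3 DNTCF4 libraries, by a log2 change of -0.44 (SE 0.048, adjusted p = 7.94e-06) in DNTCF4-EZH2 and -0.45 (SE 0.048, adjusted p = 9.01e-06) in DNTCF4-SET. These 2 comparisons share the DNTCF4 libraries. Against Vector the same groups lay lower by -0.15 (adjusted p = 0.0133) and -0.16 (adjusted p = 0.0112) on the log2 scale. Without Vector replicate 1 these calls were lost, at -0.12 in both groups (adjusted p = 0.0809 in DNTCF4-EZH2 and 0.0673 in DNTCF4-SET), and without DNTCF4-EZH2 replicate 1 so was that of DNTCF4-EZH2 (-0.14, adjusted p = 0.0578). Between DNTCF4-EZH2 and DNTCF4-SET the difference in Mdm2 was 0.01 with a 95% interval of -0.09 to 0.10.

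The start of Mdm2 given by RefSeq is printed with its p53 half-site match in capitals, which begins 186 bases before the start (chr10:117710709-117711008, minus strand, GRCm38.p6). The p53-responsive promoter of Mdm2 known from the literature lies inside the gene and is not in this window.

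Mdm2: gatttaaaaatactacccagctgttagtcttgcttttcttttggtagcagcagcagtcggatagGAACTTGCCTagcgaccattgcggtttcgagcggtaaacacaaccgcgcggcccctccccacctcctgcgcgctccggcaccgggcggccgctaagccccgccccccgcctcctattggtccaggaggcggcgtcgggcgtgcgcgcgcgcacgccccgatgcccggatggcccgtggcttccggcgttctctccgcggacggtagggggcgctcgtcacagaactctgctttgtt

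Other genes that act on p53 were called higher more often than lower in DNTCF4. Of the 23 tested genes of that list, 9 rose, 3 fell and 11 were not called, where 29.5% of all tested genes were called higher and 28% lower. The median log2 change was 0.09, beside 0.01 over all tested genes. Mdm4, the partner of MDM2 that blocks p53 activity, rose to 87.2 ± 11.9 CPM in DNTCF4, against 57.5 ± 1.2 in Vector (log2 0.60, adjusted p = 4.03e-06). Usp7, the deubiquitinase of MDM2 and p53, rose to 202 ± 22.9 CPM, against 156 ± 2.3 in Vector (log2 0.37, adjusted p = 7.57e-05). Rpl11, a ribosomal protein that binds MDM2, fell to 519 ± 55 CPM, against 660 ± 20.3 in Vector (log2 -0.35, adjusted p = 8.98e-05). The kinase gene Hipk2 fell to 42 ± 4.19 CPM in DNTCF4, against 51.4 ± 2.93 in Vector, and was higher at 57.2 ± 1.6 CPM in DNTCF4-EZH2 (log2 0.44 against DNTCF4, adjusted p = 0.0001) and 54.8 ± 1.58 CPM in DNTCF4-SET (log2 0.38, adjusted p = 0.000434).

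Cdkn1a, which encodes p21, more than doubled in DNTCF4 in a line with almost no Trp53 reads. It lies on chromosome 17, 29090976 to 29100727 (plus strand). The DNTCF4 libraries held 64.7, 79.8 and 77.5 CPM, against 31.9, 35.1 and 33.7 CPM in Vector. The lowest DNTCF4 library, replicate 1, was still far above the highest Vector library. The change was 2.2-fold (log2 1.14, SE 0.072, adjusted p = 2.8e-09), and 10.3% of the tested genes changed more. Levels in DNTCF4-EZH2 were 63.4, 68.5 and 61.5 CPM and in DNTCF4-SET 62.6, 64.6 and 60.6 CPM, again above all Vector libraries (log2 0.94, adjusted p = 2.63e-08, and 0.90, adjusted p = 4.56e-08). Relative to DNTCF4 the call was at the threshold. DNTCF4-EZH2 overlapped with DNTCF4 and was called lower at -0.20 (SE 0.068, adjusted p = 0.0411), a call lost in 12 of 18 alternative fits. Of the fits that left out 1 library it was kept in those without DNTCF4 replicate 1 (-0.29, adjusted p = 7.91e-05) and without DNTCF4-EZH2 replicate 2, and the others gave an adjusted p of up to 0.161. DNTCF4-SET did not overlap and was called lower at -0.24 (SE 0.068, adjusted p = 0.0161), lost in 5 of 18, among them the fits without DNTCF4 replicate 2 (-0.19), DNTCF4 replicate 3 (-0.21), DNTCF4-SET replicate 1 (-0.24) and DNTCF4-SET replicate 3 (-0.22).

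RefSeq gives Cdkn1a 2 starts. The upstream one is shown, since it holds 2 of the 4 p53 half-site matches found in the 12 windows of the genes described here, in capitals, beginning 73 and 51 bases before the start (chr17:29090729-29091028, plus strand, GRCm38.p6). The other start, farther into the gene, has none.

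Cdkn1a upstream start: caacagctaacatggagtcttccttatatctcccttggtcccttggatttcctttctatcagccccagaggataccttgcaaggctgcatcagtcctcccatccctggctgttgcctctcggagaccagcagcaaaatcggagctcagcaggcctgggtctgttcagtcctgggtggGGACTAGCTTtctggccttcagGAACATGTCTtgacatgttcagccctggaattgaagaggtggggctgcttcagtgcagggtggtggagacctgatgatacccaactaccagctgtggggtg

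RefSeq windows of 250 bases before to 50 bases after a start were found for 8 of the 10 genes, 12 windows in all, and none was found for Trp63 and Cdkn1c. The p53 half-site pattern was in 8.36% of all 32851 mouse windows, an E2F pattern (TTTCCCGC, TTTCGCGC, TTTGCCGC or TTTGGCGC) in 2.26% and a TCF/LEF pattern (CTTTGAA or CTTTGAT) in 8.65%, both strands searched. None of the 12 windows held the TCF/LEF letters, and no match overlapped another of a different pattern. These matches describe letters in the windows only.

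Known p53 targets moved in both directions in DNTCF4, in shares near those of all tested genes. Of 37 tested targets other than Cdkn1a and Mdm2, 11 rose, 12 fell and 14 were not called. Over all tested genes 29.5% were called higher and 28% lower. The median log2 change was 0.03, beside 0.01 over all tested genes. The rising ones included Pmaip1, which encodes the cell death protein NOXA, at 21.7 ± 3.87 CPM in DNTCF4 and 8.12 ± 0.445 CPM in Vector (log2 1.41, adjusted p = 2.54e-08). Gdf15, a stress cytokine gene, reached 71.2 ± 6.97 CPM in DNTCF4, against 45.1 ± 0.697 in Vector (adjusted p = 1.07e-07). Ephx1, an epoxide hydrolase gene, fell to 28 ± 3.16 CPM in DNTCF4, against 68.7 ± 3.8 in Vector (log2 -1.29, adjusted p = 6.29e-10). Bbc3 (PUMA), with a log2 change of 0.07 (adjusted p = 0.533), and Sesn2, with 0.03 (adjusted p = 0.633), were not called, and Bax fell slightly (log2 -0.15, adjusted p = 0.00926). With EZH2 added to DNTCF4, 6 of the 37 were higher and 5 lower, where 13% and 12.5% of all genes were. With SET added 4 were higher and 5 lower, where 12.7% and 13.3% of all genes were. The mitotic spindle gene Psrc1 rose in both, to 5.17 ± 0.134 CPM in DNTCF4-EZH2 and 4.65 ± 0.532 CPM in DNTCF4-SET, against 2.46 ± 0.345 CPM in DNTCF4 (adjusted p = 1.35e-05 and 7.64e-05).

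Cdkn1b, encoding p27, differed by less than Cdkn1a in each comparison with Vector. It lies on chromosome 6, 134920401 to 134925513 (plus strand). It held 68.4, 68.4 and 64.4 CPM in DNTCF4, against 57.1, 58.1 and 57.7 CPM in Vector, without overlap (log2 0.22, SE 0.039, adjusted p = 0.000183). DNTCF4-EZH2 was at 67.4, 69.1 and 66.6 CPM, which overlapped with DNTCF4 (log2 0.01, 95% interval -0.06 to 0.09), and was higher than Vector (log2 0.23, adjusted p = 0.000104). DNTCF4-SET was at 61.7, 62.2 and 60.8 CPM, between DNTCF4 and Vector. It was called lower than DNTCF4 (log2 -0.12, SE 0.038, adjusted p = 0.0261) and higher than Vector (log2 0.09, SE 0.039, adjusted p = 0.0483). The first call was lost in 8 of 18 alternative fits, among them those without DNTCF4 replicate 2 or any 1 DNTCF4-SET library (adjusted p up to 0.131 over the alternatives). The second was lost in 11, with an adjusted p of up to 0.203, and of the fits without 1 library it was kept in those without DNTCF4 replicate 1, DNTCF4 replicate 3 or DNTCF4-EZH2 replicate 1. Among genes that control p27 and p21 abundance, 7 of 15 rose and 2 fell in DNTCF4 against Vector. The list pools genes that raise these inhibitors with genes that lower them, so its counts give no direction for abundance. Of all tested genes 29.5% were called higher and 28% lower. The median log2 change of the 15 was 0.09, beside 0.01 over all tested genes. Foxo3, a transcription factor that activates Cdkn1b, rose to 187 ± 3.93 CPM, against 132 ± 2.47 in Vector (log2 0.50, adjusted p = 8.56e-09). Dtl (log2 0.28, adjusted p = 0.000108) and Ddb1 (log2 0.19, adjusted p = 0.000132), genes of a ligase that degrades p21, also rose. Cul4a (log2 -0.07, adjusted p = 0.124) and Cul4b (log2 0.02, adjusted p = 0.847) of that ligase were not called. Skp2, whose product marks p27 for degradation, was 50.9 ± 1.5 CPM in DNTCF4 and 46.6 ± 1.58 CPM in Vector (log2 0.13, adjusted p = 0.0282), and its cofactor gene Cks1b was 64.7 ± 8.19 and 77.2 ± 7.78 CPM in the same groups (log2 -0.26, adjusted p = 0.0154).

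Cdkn1c, encoding the imprinted inhibitor p57, was the rarest tested inhibitor per kilobase and also doubled in DNTCF4. It lies on chromosome 7, 143458339 to 143461050 (minus strand). Its levels were 7.74, 6.37 and 5.94 CPM in DNTCF4, against 3.2, 3.33 and 3.35 CPM in Vector. The groups did not overlap (2.02-fold, log2 1.02, SE 0.12, adjusted p = 3.27e-06), and DNTCF4 replicate 1 was the highest. It was also higher than Vector in DNTCF4-EZH2, at 6.08 ± 0.436 CPM (log2 0.88, adjusted p = 1.43e-05), and in DNTCF4-SET, at 5.39 ± 0.531 CPM (log2 0.72, adjusted p = 0.00013). Neither differed from DNTCF4 by a called amount (log2 -0.14, 95% interval -0.35 to 0.07, for DNTCF4-EZH2 and -0.30, -0.51 to -0.09, adjusted p = 0.0545, for DNTCF4-SET). Without DNTCF4 replicate 1 these differences were -0.02 and -0.19. Without DNTCF4 replicate 3 or DNTCF4-SET replicate 3 that of DNTCF4-SET was called, at -0.37 in both fits (adjusted p = 0.032 and 0.0496). In its imprinted neighbourhood, Phlda2 was 3.55 CPM in DNTCF4 and 2.75 CPM in Vector (log2 0.38, adjusted p = 0.033), Kcnq1 had 73 counts in all and was not tested, and Nap1l4 was 80.6 and 80 CPM in those groups (adjusted p = 0.858). Of the 20 nearest protein-coding genes 12 were tested, 3 called higher and 1 lower, where 29.5% and 28% of all tested genes were. The largest called change was that of Ascl2 (log2 2.18, adjusted p = 0.00533), a gene with only 104 counts in all.

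Cdkn2a was the most abundant inhibitor gene per kilobase in each group. It encodes p16INK4A and ARF from separate first exons, and counts per gene merge both. It lies on chromosome 4, 89274471 to 89294653 (minus strand). Cdkn2a held 271, 269 and 276 CPM in DNTCF4, against 387, 373 and 355 CPM in Vector, so that every DNTCF4 library was lower (log2 -0.45, SE 0.035, adjusted p = 3.25e-08). DNTCF4-EZH2 stood at 349, 344 and 353 CPM and DNTCF4-SET at 321, 320 and 329 CPM, between DNTCF4 and Vector in every library. The rise over DNTCF4 was 0.36 (SE 0.035, adjusted p = 2.36e-06) with EZH2 and 0.25 (SE 0.035, adjusted p = 0.000104) with SET. Ezh2 counts, which may include construct reads, were 450 ± 20.5 CPM in DNTCF4-EZH2 and 546 ± 33.1 CPM in DNTCF4-SET, against 65.4 ± 3.1 CPM in DNTCF4 and 57.9 ± 1.53 CPM in Vector. Relative to DNTCF4, Cdkn2a and Ezh2 counts were both higher in the 2 groups with an added construct. Against Vector, DNTCF4-SET was lower by -0.20 on the log2 scale (adjusted p = 0.000151). DNTCF4-EZH2 was lower by -0.09 (adjusted p = 0.0349), a call lost in 7 of 18 alternative fits. These included the fit without Vector replicate 1 (log2 -0.05, adjusted p = 0.319) and those without Vector replicate 2, DNTCF4 replicate 3, DNTCF4-EZH2 replicate 1 or 2, or DNTCF4-SET replicate 1 (-0.09 to -0.07).

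Both RefSeq starts of Cdkn2a are shown because the counts cannot tell them apart. The upstream start, that of ARF (chr4:89294570-89294869, minus strand, GRCm38.p6), holds an E2F match in capitals 99 bases before the start. The downstream start, that of p16INK4A (chr4:89282143-89282442, minus strand), holds none of the letters searched. The upstream window is 77% G and C with 45 CpG dinucleotides, and the downstream window is 60.3% G and C with 12.

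Cdkn2a upstream start: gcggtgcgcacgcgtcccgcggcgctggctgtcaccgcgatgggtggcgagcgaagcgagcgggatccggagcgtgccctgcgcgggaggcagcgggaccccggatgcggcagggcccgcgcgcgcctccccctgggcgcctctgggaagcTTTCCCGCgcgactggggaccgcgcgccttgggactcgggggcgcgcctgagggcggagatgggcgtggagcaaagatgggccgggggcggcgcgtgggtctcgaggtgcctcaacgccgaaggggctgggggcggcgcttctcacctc
Cdkn2a downstream start: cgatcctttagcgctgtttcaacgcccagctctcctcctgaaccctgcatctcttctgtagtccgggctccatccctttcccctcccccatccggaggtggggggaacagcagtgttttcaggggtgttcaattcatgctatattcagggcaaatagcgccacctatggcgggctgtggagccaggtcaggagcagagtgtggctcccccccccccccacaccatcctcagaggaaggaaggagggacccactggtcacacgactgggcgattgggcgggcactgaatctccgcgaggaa

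Cdkn2b, encoding p15INK4B beside Cdkn2a (chromosome 4, 89306299 to 89311039, minus strand), fell in DNTCF4 and was below Vector in all groups with DNTCF4. It held 51.7, 60.1 and 57.9 CPM in DNTCF4, against 94.9, 87.5 and 90.1 CPM in Vector, without overlap (1.6-fold lower, log2 -0.68, SE 0.054, adjusted p = 4.55e-08). DNTCF4-EZH2 was at 60.3, 62.3 and 65.7 CPM and DNTCF4-SET at 65.1, 63.4 and 62.9 CPM, all above the DNTCF4 libraries and all below the Vector libraries. The difference from DNTCF4 was 0.15 with EZH2 (95% interval 0.04 to 0.25, adjusted p = 0.0613, not called, and 0.08 without DNTCF4 replicate 1, but called at 0.19 without DNTCF4 replicate 2) and 0.17 with SET (SE 0.055, adjusted p = 0.0316). The call with SET was lost in 7 of 18 alternative fits, among them those without DNTCF4 replicate 1 (0.11, adjusted p = 0.0763), DNTCF4 replicate 3 (0.19), DNTCF4-EZH2 replicate 2 (0.17) or any 1 DNTCF4-SET library (0.16 to 0.18). Against Vector, Cdkn2b was lower in both groups (log2 -0.53, adjusted p = 6.02e-07, with EZH2 and -0.51, adjusted p = 1.01e-06, with SET). On the same stretch of chromosome 4, Mtap was 99 CPM in DNTCF4 and 114 CPM in Vector (log2 -0.20, adjusted p = 0.00192), and 7 of the 20 nearest protein-coding genes, most of them interferon genes, had 0 counts.

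Cdkn2c, encoding p18INK4C (chromosome 4, 109660876 to 109667189, minus strand), rose in DNTCF4 and rose again with each added construct. It held 148, 153 and 149 CPM in DNTCF4, against 99.3, 97.8 and 98 CPM in Vector (1.52-fold higher, log2 0.61, SE 0.035, adjusted p = 9.78e-10). DNTCF4-SET was at 172, 170 and 167 CPM and DNTCF4-EZH2 at 179, 190 and 186 CPM, and no 2 of the 4 groups overlapped. Over DNTCF4 the rise was 0.31 (SE 0.034, adjusted p = 9.27e-06) with EZH2 and 0.18 (SE 0.034, adjusted p = 0.00122) with SET. Over Vector it was 0.91 (adjusted p = 6.03e-12) and 0.79 (adjusted p = 3.53e-11). Cdkn2c was thus the INK4 gene that moved away from its Vector level when EZH2 or SET was added, whereas Cdkn2a moved toward it.

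**Figure D3:**
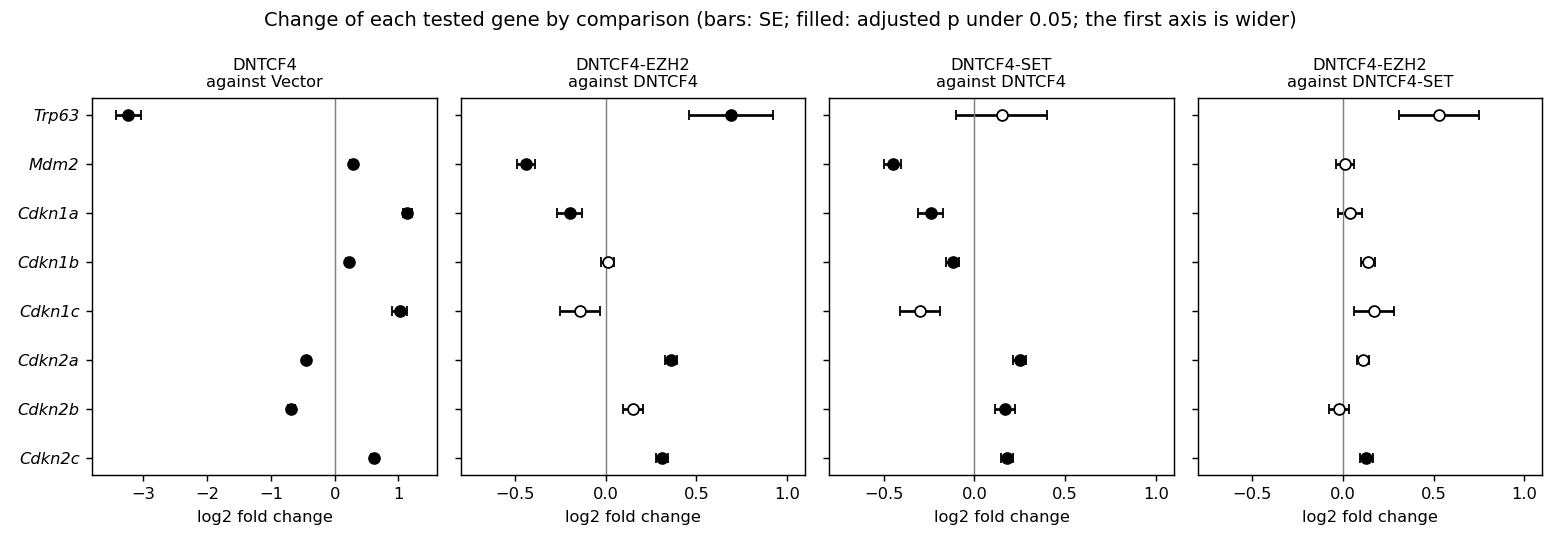
Log2 fold change (point) and SE (bar) of the 8 tested genes in 4 comparisons; filled points have an adjusted p under 0.05, and the first axis is wider than the others. Trp63 has the largest change in DNTCF4 against Vector, at -3.23, and Mdm2 falls by nearly the same amount with EZH2 (-0.44) and with SET (-0.45).

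With EZH2 added to DNTCF4, 5 of the 8 genes were called, where 25.5% of all tested genes were. Trp63, Cdkn2a and Cdkn2c were higher (13% of all genes were called higher), and Mdm2 and Cdkn1a were lower (12.5% of all). The libraries of 5 genes did not overlap, where 39.1% of all did not. With SET added, 6 were called, where 26% of all were. Cdkn2a, Cdkn2b and Cdkn2c were higher (12.7% of all), and Mdm2, Cdkn1a and Cdkn1b were lower (13.3% of all). Here 7 genes did not overlap, where 37.2% of all did not. Mdm2, Cdkn2a and Cdkn2c kept their calls in all 18 alternative fits of both comparisons, and each of the other 5 calls was lost in at least 5 of them. Both comparisons rest on the same 3 DNTCF4 libraries. Between DNTCF4-EZH2 and DNTCF4-SET, 1 of the 8 was called, where 5.16% of all were (3% higher and 2.17% lower). This was Cdkn2c (log2 0.13, SE 0.034, adjusted p = 0.0426), and 3 genes did not overlap, where 31.8% of all did not. The call was lost in 14 of 18 alternative fits, with an adjusted p of up to 0.203, and of the fits without 1 library it was kept in those without DNTCF4 replicate 1 or 2. Without DNTCF4 replicate 1, Cdkn1b (0.14, adjusted p = 0.00828) and Cdkn2a (0.11, adjusted p = 0.0138) were called as well. The 95% interval of that difference was -0.09 to 0.18 for Cdkn1a and 0.04 to 0.18 for Cdkn2a, neither of them called in the fit of all libraries. Against Vector all 8 genes were called in DNTCF4-EZH2, where 57.7% of all were, 4 higher (28.7% of all) and 4 lower (29% of all), and none of the 8 overlapped (68.1% of all did not). In DNTCF4-SET all 8 were called, where 58% of all were, 4 higher (28.1% of all) and 4 lower (29.9% of all), and none overlapped (66.1% of all did not). The comparisons with Vector share the Vector libraries.

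Per kilobase, the INK4 genes made up most of the summed level of the 6 inhibitor genes in each group. Cdkn2a counts merge p16INK4A and ARF, so its part, the INK4 sum and the total may include ARF transcript. The 6 genes together came to 367 ± 5.67 CPM per kilobase in DNTCF4 and 442 ± 15.3 in Vector, with 448 ± 4.8 in DNTCF4-EZH2 and 419 ± 2.67 in DNTCF4-SET. The INK4 genes held 89.4 ± 0.367% of it in DNTCF4 and 94.6 ± 0.286% in Vector. Their sum was 329 ± 4.35 CPM per kilobase in DNTCF4 and 419 ± 15.6 in Vector, while that of the CIP/KIP genes was 38.8 ± 1.79 in DNTCF4 and 23.7 ± 0.6 in Vector. Cdkn2a alone held 63.2 ± 1.14% in DNTCF4 and 71.6 ± 0.718% in Vector. The share of Cdkn2c was 15.2 ± 0.248% in DNTCF4 and 8.28 ± 0.231% in Vector, and that of Cdkn1a was 5.66 ± 0.544% and 2.14 ± 0.155% in those groups. In DNTCF4, Cdkn2c stood above Cdkn2b per kilobase, at 55.7 against 40.7, and in Vector Cdkn2b stood above Cdkn2c, at 65.4 against 36.6. Cdkn1a passed Cdkn1b in DNTCF4, at 20.8 ± 2.29 against 14.7 ± 0.505 CPM per kilobase, and was below it in Vector, at 9.45 ± 0.453 against 12.7 ± 0.114. Outside these genes, the fourth INK4 gene Cdkn2d fell to 15 ± 1.33 CPM in DNTCF4, against 21.7 ± 0.871 in Vector (log2 -0.53, adjusted p = 2.06e-05).

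**Figure D4:**
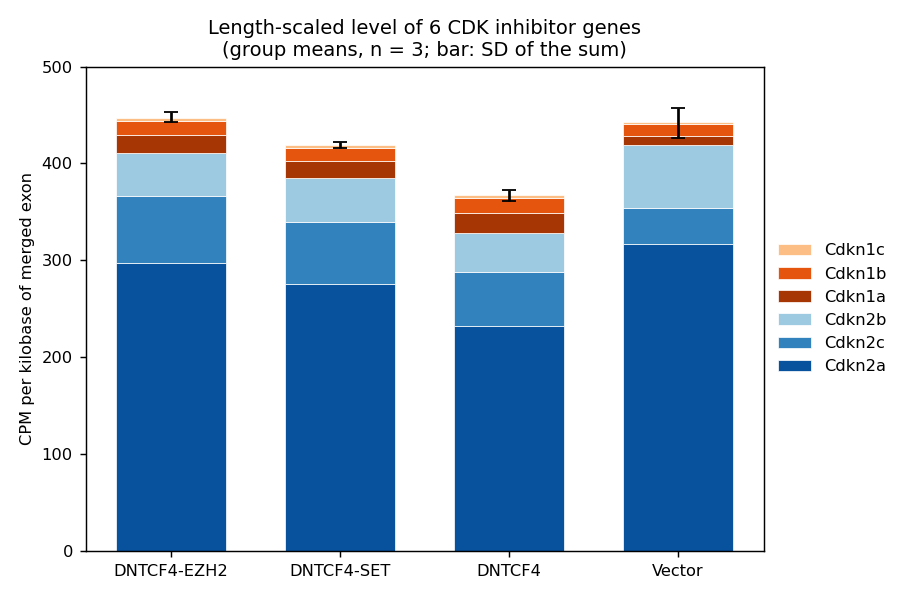
Stacked group means of 6 CDK inhibitor genes in CPM per kilobase of merged exon, with INK4 genes in blue and CIP/KIP genes in orange; the bar is the SD of the sum over 3 libraries. The sum is lowest in DNTCF4, at 367, and Cdkn2a, whose counts merge p16INK4A and ARF, is the largest part of each column.

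A list of 19 tested cell cycle kinases, cyclins and related genes also holds Wee1 and Pkmyt1, which restrain CDK1. Of the 19, 4 rose and 8 fell in DNTCF4 against Vector. The other 7 were not called. Over all tested genes 29.5% were called higher and 28% lower. The median log2 change was -0.15, beside 0.01 over all tested genes. The INK4 partner Cdk6 fell to 168 ± 5.9 CPM in DNTCF4, against 336 ± 8.56 in Vector (adjusted p = 2.25e-12), and cyclin D1 (Ccnd1), also a known Wnt target, to 165 ± 5.76 CPM, against 337 ± 10 (log2 -1.03, adjusted p = 6.34e-12). Cdk4 fell less, to 181 ± 5.64 CPM, against 209 ± 4.14 (log2 -0.20, adjusted p = 0.000191). The CIP/KIP partner Cdk2 rose to 53.1 ± 1.59 CPM, against 41.5 ± 0.703 (log2 0.35, adjusted p = 3.38e-06). With EZH2 added to DNTCF4, 10 of the 19 rose and 1 fell, where 13% and 12.5% of all genes did. With SET 6 rose and 3 fell, where 12.7% and 13.3% of all genes did. Cyclin B2 (Ccnb2), which drives mitotic entry, rose to 29.6 ± 1.6 CPM with EZH2 and 25.5 ± 1.42 CPM with SET, against 16.4 ± 1.2 CPM in DNTCF4 (adjusted p = 2.53e-07 and 8.84e-06). Cyclin A2 (Ccna2) rose to 85.4 ± 2.05 and 75.7 ± 2.04 CPM in the same groups, against 59.4 ± 1.03 in DNTCF4.

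Downstream of the INK4 proteins, the retinoblastoma and E2F genes were mostly not called. In DNTCF4 against Vector 3 of 18 rose and 2 fell, and 13 were not called. Over all tested genes 29.5% were called higher and 28% lower. Rb1 had a log2 change of 0.00 (adjusted p = 0.993). Tfdp2, an E2F partner gene, rose to 46 ± 3.87 CPM in DNTCF4, against 30.1 ± 1.57 in Vector (adjusted p = 3.81e-07). With EZH2 added 4 rose and none fell, where 13% and 12.5% of all genes did. Among the 4 were the repressor E2F genes E2f7 (39.8 ± 1.77 CPM in DNTCF4-EZH2 and 32.7 ± 1.44 CPM in DNTCF4) and E2f8 (47.8 ± 3.09 and 39.8 ± 2.43 CPM in those groups). With SET added 2 rose and 3 fell, where 12.7% and 13.3% of all genes did. Rbl2, which encodes p130, was called higher with EZH2 (log2 0.22, adjusted p = 0.00267) and with SET (log2 0.23, adjusted p = 0.00181).

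Regulators of the Ink4a-Arf locus rose more often than they fell in DNTCF4 against Vector, 11 against 1 of 18 tested. Over all tested genes 29.5% were called higher and 28% lower. The median log2 change was 0.16, beside 0.01 over all tested genes. The activator genes Ets2 (165 ± 6.62 CPM in DNTCF4 and 108 ± 4.64 CPM in Vector, adjusted p = 1.22e-08) and Ets1 (96.5 ± 4.16 and 69.2 ± 2.26 CPM, adjusted p = 9.6e-08) rose, as did the Polycomb gene Ezh1 (75.4 ± 5.07 and 53.4 ± 2.58 CPM, adjusted p = 6.59e-07). Id1, whose product opposes ETS activation of p16, fell to 15.8 ± 0.545 CPM in DNTCF4, against 21.6 ± 1.68 in Vector (adjusted p = 9.71e-05). Other Polycomb genes of the list were called higher as well. They were Kdm2b (log2 0.34, adjusted p = 2.84e-05), Suz12 (0.38, 0.00214), Ezh2 (0.18, 0.0109), Eed (0.14, 0.0123) and Cbx7 (0.17, 0.0142). The PRC1 genes Bmi1 (log2 0.04, adjusted p = 0.723), Ring1 (0.10, 0.36), Rnf2 (-0.14, 0.0978) and Cbx8 (0.05, 0.552) were not called. Dmtf1, which activates ARF, was lower with EZH2 (127 ± 3.51 CPM) and with SET (128 ± 2.27 CPM) than in DNTCF4 (150 ± 13.6 CPM; adjusted p = 0.00266 and 0.00361).

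Genes often measured as signs of senescence, the arrest that p16 and p21 maintain, held members of both directions. In DNTCF4 against Vector 11 of 18 rose and 5 fell, where 29.5% of all tested genes were called higher and 28% lower. The median log2 change was 0.28, beside 0.01 over all tested genes. The secreted factor genes Il1a (74.2 ± 5.46 CPM in DNTCF4 and 0.355 ± 0.162 CPM in Vector), Cxcl1 (1270 ± 198 and 46.2 ± 2.53 CPM) and Mmp3 (2072 ± 82.5 and 577 ± 16.7 CPM) rose most by p. Lamin B1 (Lmnb1), which is lost in senescent cells, rose to 65.7 ± 1.82 CPM in DNTCF4, against 53.1 ± 1.63 in Vector (log2 0.31, adjusted p = 2.05e-05). Glb1, the gene of senescence-associated beta-galactosidase, was 75.3 ± 2.14 CPM in DNTCF4 and 73.6 ± 1.37 CPM in Vector (adjusted p = 0.507).

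Across the 12 libraries the genes whose levels followed each member most closely differed between members. These Pearson correlations of log2 CPM describe libraries that share 4 groups and their depth, and carry no test. Cdkn2c was most like Abcg1, a sterol exporter gene (r = 0.996), which stood at 201 ± 2.24, 189 ± 6.06, 161 ± 1.88 and 101 ± 1.2 CPM in DNTCF4-EZH2, DNTCF4-SET, DNTCF4 and Vector. Cdkn1a was most like Tgif1, a transcriptional corepressor gene (r = 0.991), and Trp63 most like Timp1, a metalloproteinase inhibitor gene (r = 0.988). Cdkn2b was most like the lysosomal protease gene Ctsl (r = 0.986), Cdkn2a most like Pcolce2, a collagen processing enhancer gene (r = 0.981), and Cdkn1c most like Smc5, a chromosome maintenance gene (r = 0.981). Cdkn1b was most like the kinase gene Pask (r = 0.972). The highest value for Mdm2 was with the zinc finger gene Zbtb25 (r = 0.969), at 11 ± 0.561, 9.93 ± 0.842, 16.7 ± 1.38 and 12.1 ± 0.926 CPM in the same order of groups. Among the other genes most like a member, Snhg1, a host gene of small nucleolar RNAs, was close to Mdm2 (r = 0.960), and the lipoprotein lipase gene Lpl (r = 0.993) and the complement gene C3 (r = 0.994) were close to Cdkn2c.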

How the data were processed

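Total RNA of 12 samples was sequenced, and groups and replicate numbers came from the sample titles. The authors deposited expected counts per gene, not normalised, and rlog values, which are regularised log2 counts. The submitters' processing notes name the genome build GRCm38, the aligner STAR 2.7.8a, the quantifier RSEM 1.3.3, DESeq2, the read trimmer cutadapt 2.3 and FastQC 0.11.8; order, settings and strand use are not given in the sources used here. RSEM shares reads between similar genes by a model, so such genes are uncertain. Positions came from GENCODE M21, matched by identifier.

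The deposited expected counts were rounded and filtered with filterByExpr (minimum count 10, minimum total 15), leaving 15052 genes. EdgeR 4.0.16 in R 4.3.3 fitted 1 mean per group over the 12 libraries with TMM scaling (8 residual degrees of freedom, biological coefficient of variation 5.17%) and quasi-likelihood tests for 6 comparisons. The procedure was tried on counts simulated from its own fitted spread, for DNTCF4 against Vector only. Such counts cannot show whether the model fits these data. At a floor of 3 counts, the level that 0 counts allow is 0.0882 to 0.127 CPM, depending on the library. The 18 alternatives were DESeq2 size factors, the DESeq2 1.42.0 Wald test, limma 3.58.1 on rlog values, no filter on low counts, a block for replicate number, a fit of just the 6 libraries of a comparison, and each library left out in turn.

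The members and the gene lists were chosen with earlier results of these data known. Named genes are the members, up to 4 genes of each list with the smallest p per comparison, neighbours of 3 loci, the 3 genes most like each member, and any gene of the lists of p53 regulators, other inhibitors, CDKs and cyclins, RB and E2F, and p27 and p21 turnover. Cell type markers come from lists of their own. The markers named singly, with Gdf15, Bbc3, Sesn2, Bax, Glb1, Lmnb1, Ring1, Suz12, Rnf2 and Cbx8, lie outside this rule. They were chosen after their values were seen. Likeness used log2 CPM with a prior count of 2.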

Additional observations from a re-analysis of the deposited data

Results flagged for a closer look

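Cdkn2c differed between the 2 added constructs: its rise over DNTCF4 was larger with EZH2 than with SET by a log2 difference of 0.13 (edgeR adjusted p = 0.0426, SE 0.034), with levels of 185 ± 5.7 CPM in DNTCF4-EZH2 and 170 ± 2.63 CPM in DNTCF4-SET. It was higher in all 3 DNTCF4-EZH2 libraries. The adjusted p over the 18 alternatives ran from 0.00464, without DNTCF4 replicate 1, to 0.203, without DNTCF4-EZH2 replicate 2, and 4 of them kept the call.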

How the results depend on the processing

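Of 864 values of the 8 tested genes under 18 alternatives in 6 comparisons, 781 kept their direction and side of the threshold, 74 lost a call, 9 gained one, and none with a call changed sign. The number of genes called among the 8 in DNTCF4 against Vector was 8 throughout. In DNTCF4-EZH2 against DNTCF4 it was 5, 6 without a filter, where Cdkn2b was called (adjusted p = 0.0443), and 3 with limma on the rlog values and with only the 6 libraries compared; leaving out libraries gave 3 to 5. In DNTCF4-SET against DNTCF4 it was 6, and 3 with only the 6 libraries; leaving out libraries gave 3 to 6. In DNTCF4-EZH2 against DNTCF4-SET it was 1, and 0 with DESeq2 size factors, without a filter, with limma on the rlog values and with the replicate number as a block, and 3 with only the 6 libraries; leaving out libraries gave 0 to 3, the 3 without DNTCF4 replicate 1. Genes called over the whole table with only the 6 libraries were 2532 in DNTCF4-SET against DNTCF4 (3914 otherwise) and 2177 in DNTCF4-EZH2 against DNTCF4-SET (777 otherwise), where leaving out libraries gave 359 to 1979. The cause was not tested. The labels do not say whether same-numbered libraries were prepared together. Over 18 pairs of same-numbered libraries the correlation of deviations ran from -0.09 to 0.15, with 1 over 0.1. Such values show no clear shared replicate effect, but cannot tell whether the samples were paired. Under the block, Cdkn2c between DNTCF4-EZH2 and DNTCF4-SET had a log2 difference of 0.13 (adjusted p = 0.0672) and Cdkn1b in DNTCF4-SET against Vector one of 0.10 (adjusted p = 0.0558), and no other call among the 8 genes was lost. Depth limits Trp53 and Trp73, with 8 and 3 counts in all, and Trp63 outside Vector, with 75 to 134 counts per group.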

Other observations

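Trp53i11, a gene named as p53-inducible and in none of the lists, was picked after its values were seen. It stood at 9.07 ± 2.03 CPM in DNTCF4 and 0.952 ± 0.26 CPM in Vector, 9.63-fold higher (edgeR adjusted p = 1.04e-09), at 11.6 ± 0.427 CPM in DNTCF4-EZH2 (log2 0.34 against DNTCF4, adjusted p = 0.052) and at 15.8 ± 0.584 CPM in DNTCF4-SET (log2 0.79 against DNTCF4, adjusted p = 0.0002). Trp53cor1, the long noncoding RNA gene beside Cdkn1a known as lincRNA-p21 and also picked afterwards, was 2.2 ± 0.128 CPM in DNTCF4 and 2.41 ± 0.373 CPM in Vector (log2 -0.14, adjusted p = 0.452), while Cdkn1a more than doubled.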
